A study of Mus musculus with 3 samples.

Results

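The Fgf8 locus held a compact group of 4 regions in a genome-wide list of regions recovered with Brachyury antibodies. The group's members were chosen by position: on chromosome 19 of mouse build mm9, every listed region with its midpoint within 100 kb of the Fgf8 start, taken at 45.817 Mb, was kept. This gave 4 of the 3160 regions of the list and 4 of the 111 on chromosome 19. The locus was picked with the list already known, so the number of regions, their nearness to Fgf8, their spacing and their packing are descriptions and carry no test. The regions come from ChIP-seq, which recovers the DNA that a protein holds by means of an antibody and reads its sequence. The cells were mesoendoderm cells derived from the mouse embryonic stem cell line D3, labelled as (C3H/HeH x 101/H)F1 in strain, by serum-free differentiation that depends on Activin A. All 3 libraries came from such cells: 1 for each of 2 custom rabbit antibodies against Brachyury, raised to the same GST fusion of residues 249 to 436, and 1 mock library with pre-immune IgG. Each group had 1 library, and the list, named as common, holds only chromosome, start and end. No height, score or value per library stood behind a region, so the antibodies and the mock could not be compared at Fgf8 and the depth there is unknown.

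Fgf8 encodes a secreted fibroblast growth factor, which signals through FGF receptor tyrosine kinases and the RAS and ERK cascade. In the gastrulating mouse embryo it is made in the primitive streak, and without it cells that enter the streak fail to move away and mesoderm does not form properly. Brachyury, a T-box transcription factor, is made in the same cells and is itself sensitive to FGF signalling. Enhancers of Fgf8 are known on both sides of the gene, several of them in introns of its neighbour Fbxw4, an F-box protein gene. In the order of protein-coding genes of the reference table (GRCm38.p6, used for order only), Fbxw4, Dpcd and Poll, the last a DNA polymerase gene, precede Fgf8 on the side of lower coordinates. On the side of higher coordinates follow Npm3, of the nucleoplasmin family of histone chaperones, Oga, the enzyme that removes O-GlcNAc from proteins, and Kcnip2, a potassium channel subunit. Fgf8 lies on the minus strand, at about 45.811 to 45.817 Mb on mm9, so its upstream side faces Npm3 and its 3′ side faces Fbxw4.

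The 4 regions lay on both flanks of Fgf8, and 0 of them overlapped the gene or its start as placed here. One region was upstream and 3 were beyond the 3′ end of the gene. The upstream region, at chr19:45820125-45821286, was 1162 bp wide, and its midpoint was 3.71 kb from the start. Its nearer edge was 3.13 kb away, so it lay outside the immediate promoter. The start and end of the gene are known here only to about 1 kb, and distances carry that error.

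On the 3′ side, a pair of regions sat directly behind the gene. The nearer of the pair, at chr19:45809569-45810461, was 893 bp wide and had its midpoint 6.98 kb from the start. It ran from 0.539 to 1.43 kb beyond the gene end as placed here, and the distance of its nearer edge is smaller than the precision of that end. Its partner, at chr19:45807465-45808742, was the widest of the 4 at 1278 bp, with its midpoint 8.90 kb from the start and 2.26 to 3.54 kb beyond the gene end. The outermost region, at chr19:45797204-45797854, was the narrowest at 651 bp. Its midpoint was 19.5 kb from the start and it began 13.1 kb beyond the gene end, on the Fbxw4 side. Which exon, intron or intergenic stretch it falls in was not annotated, since no mm9 annotation was used.

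**Figure D1:**
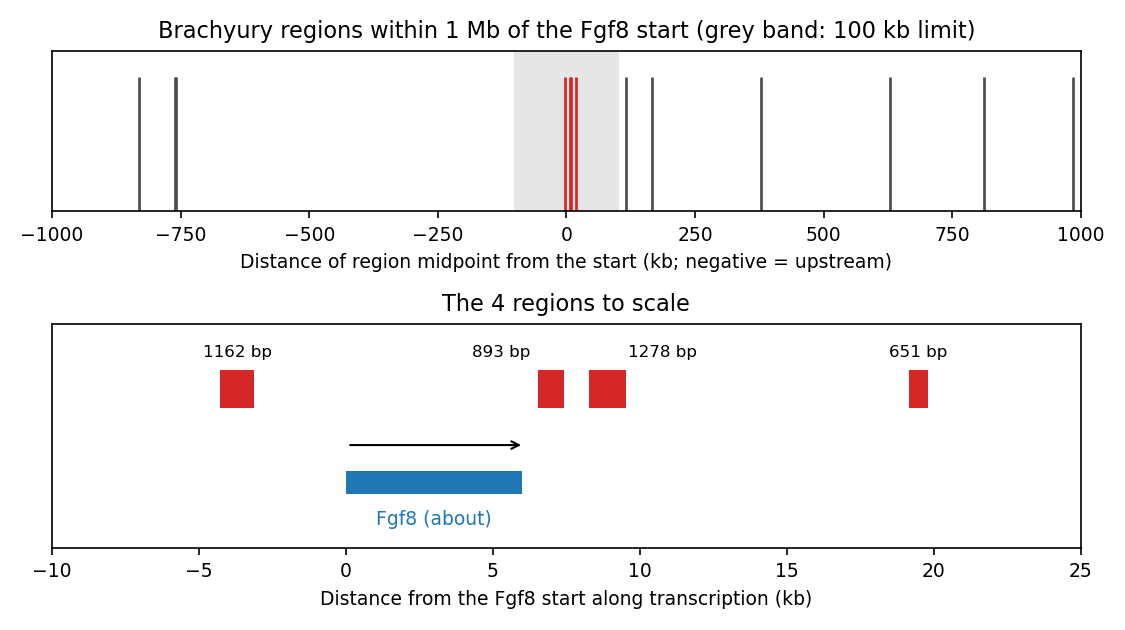
Listed Brachyury regions around Fgf8, with distance from the Fgf8 start in kb along the direction of transcription on both x axes. The upper panel marks the midpoint of each of the 13 regions within 1 Mb, members in red and the 100 kb limit in grey; the lower panel draws the 4 members (red boxes, widths in bp) and the approximate gene (blue, arrow showing transcription) to scale, with 1 region upstream and 3 beyond the 3′ end.

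The 4 regions were packed well inside the distance limit. From the first base of the outermost 3′ region to the last base of the upstream region they spanned 24.1 kb, 12.0% of the 200 kb searched, and covered 3984 bp, or 16.5% of that span. The farthest member lay 19.5 kb from the start, while the nearest region left out, at chr19:45701248-45702012 (765 bp), lay 115 kb away on the 3′ side. Any centre from 15.4 kb below to 80.5 kb above the position used would have selected the same 4. Within 20 kb of the start the count was 4, within 10 kb it was 3, and within 5 kb only the upstream region was left (1 region).

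Spacing within the group was nearly even apart from the close pair. Adjacent midpoints, read from the 3′ side toward the upstream side, were 10.6, 1.91 and 10.7 kb apart. The distances of 10.6 and 10.7 kb were the 8th and 9th shortest of 110 on chromosome 19, and that within the pair was the 4th shortest. For all adjacent regions the median distance was 217 kb on chromosome 19 (quartiles 93.0 and 568 kb) and 306 kb over the list. All 3 distances at Fgf8 were among the shortest 8.18% on the chromosome and among the shortest 5.45% of 3140 in the list. Regions chosen as a group within 200 kb have to lie close together, so these ranks partly restate the choice and support nothing.

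The surroundings were uneven. On the 3′ side, 95.2 kb without a region separated the group from the region at 115 kb, and a further one, at chr19:45649762-45650670 (909 bp), lay 167 kb from the start. On the upstream side nothing was listed for 754 kb beyond the upstream region. That stretch ended at a pair of regions of 975 and 880 bp at chr19:46575395-46576369 and chr19:46576678-46577557. In distance between midpoints it ranked 87th of 110 from the shortest, with 79.1% of the distances on the chromosome no longer. Within 200 kb of the start there were 6 regions, within 500 kb 7 and within 1 Mb 13. Chromosome 19 averaged 3.89 regions per 2 Mb. The 4 members are in these counts and in the average, so the difference partly restates the choice of the locus. The single region upstream of Fgf8 stood alone on its side for most of a megabase. On the 3′ side regions continued at wider intervals in the direction of Fbxw4.

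Few windows held as many regions. When a 200 kb window was moved along chromosome 19 in 10 kb steps, at least 4 regions fell into 45 of 5690 positions, or 0.791%. Most positions were empty (71.9%), 20.7% held 1 region, 5.55% held 2 and 1.04% held 3. Over chromosomes 1 to 19 and X together, 623 of 250956 positions held at least 4, or 0.248%. Neighbouring positions overlap, so these shares describe the list and are not independent observations. Laid end to end, 2 of 285 windows on chromosome 19 held at least 4 regions (0.702%), as did 36 of 12558 in the whole list (0.287%). These windows do not overlap, but they too are a full count over 1 list and not a sample.

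Chromosome 19 had the highest share of such windows of the 20 chromosomes, before chromosomes 2 (0.748%) and 11 (0.747%). Fgf8 itself made up a large part of it. Of the 45 windows, 19 held a member of the Fgf8 group. Among the 5667 windows free of members, 26 held at least 4 regions, or 0.459%. That was still above the share over all chromosomes but below the shares of chromosomes 2 and 11. No group was left out of those shares, so the comparison is uneven and lowers chromosome 19 by construction. The first rank held only with the Fgf8 group counted. Per unit of length chromosome 19 was also among the densest, with 1.94 regions per Mb between its outermost regions against 2.05 on chromosome 11 and 0.106 on X, where 0 of 14086 windows held as many.

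**Figure D2:**
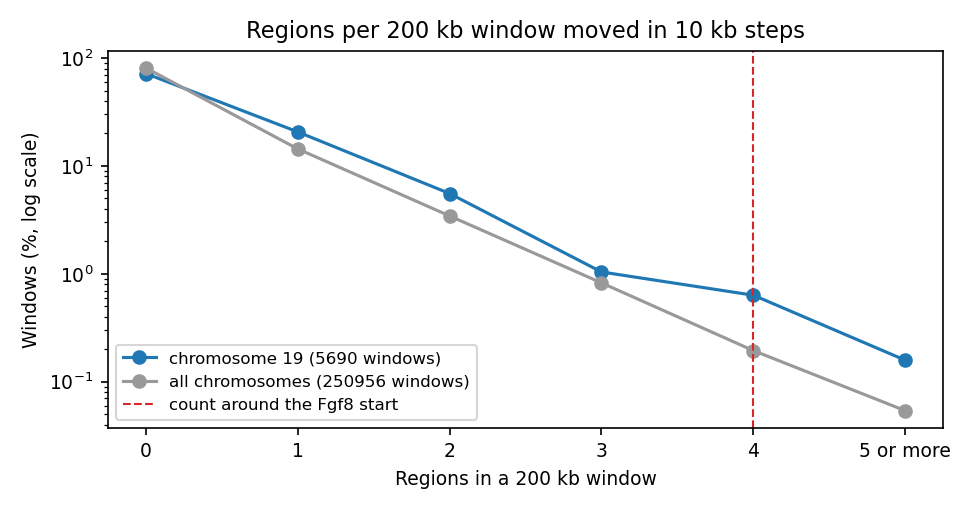
Share of 200 kb windows (y axis, percent, log scale) by the number of regions they held (x axis), for windows moved in 10 kb steps over chromosome 19 (blue) and over all chromosomes with regions (grey). The dashed line marks the 4 regions counted around the Fgf8 start, a number reached or passed in 0.791% of positions on chromosome 19 and 0.248% in the list.

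The fullest windows of chromosome 19 were at Fgf8. The highest number in any position on the chromosome was 6, found in 3 positions, and all 3 contained members: they took in the 4 regions and those at 115 and 167 kb on the 3′ side. The 6 positions with 5 regions were at Fgf8 as well. Those 6 regions spanned 172 kb, and of 106 runs of 6 consecutive regions on chromosome 19 only this one was as compact (1 run). In the whole list, 4 of 3060 such runs were as compact, this one included, and 22 window positions held 6 or more regions (0.00877%).

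Overlapping windows with at least 4 regions were joined into stretches, which gave 66 in the list, on 19 chromosomes, and 3 on chromosome 19. The other two on chromosome 19 were looser than that at Fgf8. One had its tightest 4 regions at chr19:37888395-37956811, spanning 68.4 kb with a median width of 921.5 bp. The other held 4 regions at chr19:8753682-8895268, spanning 142 kb, with wider regions (median 1146 bp). Across the 66 stretches, the tightest 4 regions spanned 125 kb in the median (range 3.20 to 194 kb), and Fgf8 was the 2nd most compact. By median width of those 4 regions it came 15th, and by base pairs covered 20th. Fgf8 thus ranked near the extreme in packing and lower in the size of its regions. Packing rests on the positions with which the locus was picked, so this contrast is a description and supports nothing.

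Counting runs of 4 consecutive regions gave a similar order. Of 108 runs on chromosome 19, that at Fgf8 was the only one spanning 24.1 kb or less (1 run, 0.926%), and the median run spanned 1.08 Mb. In the whole list 3 of 3100 runs did (0.0968%). The other 2 overlapped each other on chromosome 2, at chr2:152221736-152224932 (3.20 kb) and chr2:152222564-152237346 (14.8 kb). The gaps inside the 3.20 kb run were 8, 194 and 273 bp. All are under 1 kb, so those 4 regions count as 1 under the merging described next. The order was different when neighbours with a gap under 1 kb were counted as 1 region. Fgf8 then had 3 regions, and runs of 3 as compact as its 24.1 kb numbered 3 of 105 on chromosome 19 (2.86%) and 11 of 3040 in the list (0.362%), itself included. The others on chromosome 19 were at chr19:37948657-37956811 (8.15 kb) and chr19:6057538-6077728 (20.2 kb). Merging changes the run length as well as the regions. With regions counted as listed, the tightest run of 3 at Fgf8, at chr19:45797204-45810461, spanned 13.3 kb and was the 2nd most compact of 109 on chromosome 19, behind the same 8.15 kb run, and the 19th of 3120 in the list. The first place on the chromosome thus held for runs of 4 and not for runs of 3.

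**Figure D3:**
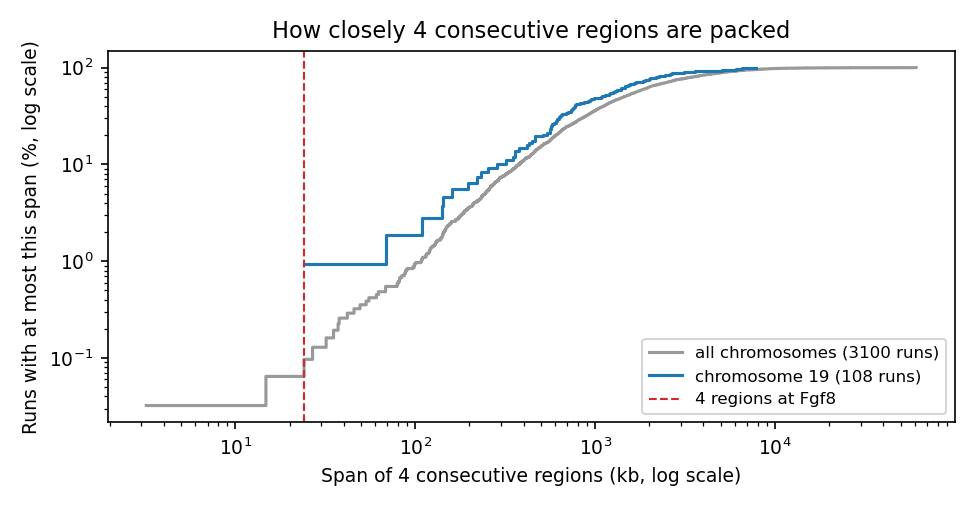
Cumulative share of runs of 4 consecutive regions (y axis, percent, log scale) by the span from the first to the last base (x axis, kb, log scale), for chromosome 19 (blue, 108 runs) and all chromosomes (grey, 3100 runs). The dashed line is the run at Fgf8, at 24.1 kb, where the blue curve begins and 3 runs of the grey curve lie at or left of it.

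The close pair was also looked at on its own. Its members, 893 and 1278 bp wide, were separated by 826 bp and together spanned 2997 bp. In the list, 80 adjacent pairs had a gap under 1 kb, 4 of them on chromosome 19. The outer span of the Fgf8 pair was the 4th largest of the 80 (median 1747.5 bp, range 602 to 6101 bp) and its gap was the 9th largest (median 186.5 bp). The narrower region of the pair, with 893 bp, ranked 12th of 80, against a median of 579.5 bp for the narrower region of such pairs. A region under 300 bp was present in 25 of the 80 pairs and not in this one, and 16 pairs, this one among them, had both regions at or above the list's median width. The pair at Fgf8 was thus made of 2 regions of ordinary to large width with a comparatively wide gap. Whether it came from 2 separate sites or from 1 site divided when the list was made cannot be told apart from positions alone.

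**Figure D4:**
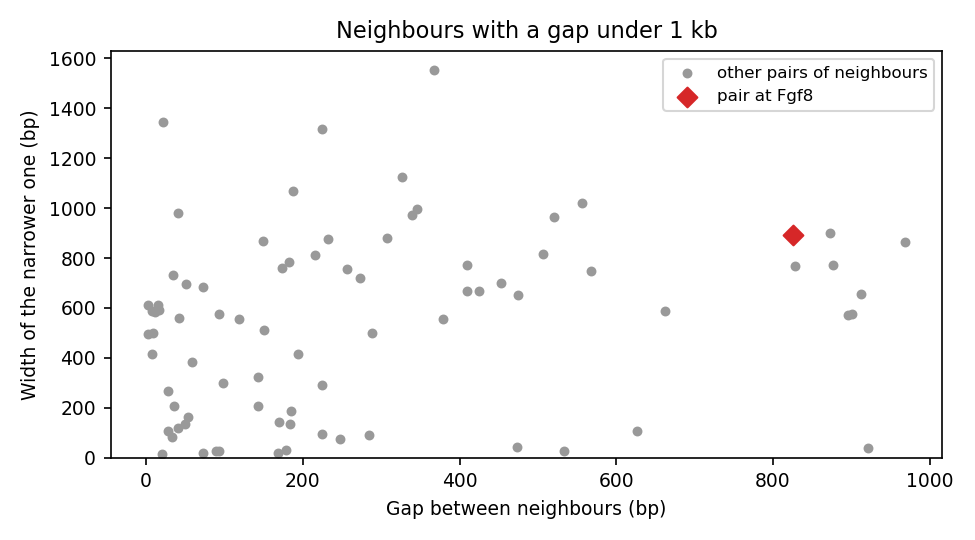
Width of the narrower region (y axis, bp) against the gap (x axis, bp) for the 80 adjacent pairs with a gap under 1 kb; each point is a pair and the red diamond is that behind Fgf8 (gap 826 bp, narrower region 893 bp). Of the 25 pairs holding a region under 300 bp, 21 had a gap under 300 bp, and the pair at Fgf8 lies at upper right.

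Widths, which the choice of members did not use, were mixed. The 4 widths were 651, 893, 1162 and 1278 bp, with a median of 1027.5 bp and a mean of 996 ± 281 bp (SD, n = 4 regions). The list had a median of 850 bp (quartiles 680 and 1019 bp, SD 299 bp) and chromosome 19 one of 919 bp (quartiles 750.5 and 1105 bp). Of the 4 regions, 3 were at or above the median of the list and 2 at or above that of chromosome 19. Whether 4 regions of these widths differ from the rest was not tested. The region of 1278 bp ranked 12th of 111 on its chromosome and 249th of 3160 in the list. The upstream region ranked 24th and 413th, and both were wider than the list's upper quartile. The region of 893 bp was at the middle of the list (57.8% of regions were no wider), and the outermost region was narrower than most (20.2%).

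In base pairs covered, the locus combined both properties. The 3984 bp were 1.99% of the 200 kb around the start, where the mean window on chromosome 19 had 363 bp covered and the mean window of the list 217 bp. As much or more was covered in 24 of 5690 positions on chromosome 19 (0.422%) and in 329 of 250956 in the list (0.131%). Of the 24 positions, 17 held all 4 members and so reached this value by construction. Of windows holding exactly 4 regions, 15 of 36 on chromosome 19 (41.7%) had at least as much covered. In the list 136 of 488 did (27.9%). Positions holding just the 4 members are counted in these numbers and match by construction. Counted once per stretch, the tightest 4 regions at Fgf8 ranked 20th of 66 in base pairs covered, and 2nd of 3 on chromosome 19. Given its number of regions, the Fgf8 window was thus not at an extreme of the list. Depth and signal height, which would show how strongly each region was occupied, were not analysed here.

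Seen from the regions, company of this kind was less rare than seen from windows, since windows centred on regions start from occupied places. In the list, 136 of 3160 regions (4.30%) had at least 3 others within 100 kb, as did 9 of 111 on chromosome 19 (8.11%). The 4 members were among those 9. The outermost 3′ region had 4 others within that distance, the most of any on the chromosome, because the region at 115 kb from the start lay 95.9 kb from it. The other three members had 3 each.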

How the data were processed

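The deposited file is 1 list of regions for the whole series, in which the authors gave chromosome, start and end in base pairs without scores. Per the submitters' processing notes, Bowtie, MACS2 and mm9 were used, with no version or setting named. How the antibodies' results were joined into 1 list is not given in the sources used here. Starts were raised by 1 so that positions count from 1. The Fgf8 position on mm9 is a rounded value fixed with the choice of the locus and could not be checked against an annotation of that build. The members and comparisons were chosen with earlier results of these data known. Regions were counted by midpoint, in windows laid between the outermost regions of each chromosome. Counting was tested on simulated lists first. Named genes are Fgf8 and its 3 protein-coding neighbours on each side; named regions are the members, those next outside the limit, and the windows and runs that match or exceed the locus. The planned search for T-box motifs in the Fgf8 promoter and the planned list of other FGF pathway genes were not analysed here. Python 3.11.15, numpy 2.4.6, pandas 2.3.3, scipy 1.17.1 and matplotlib 3.10.9 were used.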

Additional observations from a re-analysis of the deposited data

How the results depend on the processing

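No paired analysis was possible because every group is a single library and positions carry no values for any of them. The number of regions at Fgf8 stayed within 1.5 times, and their median width and spacing within 1 SD between members, in all 21 recomputations (merged neighbours, regions of at least 300 bp or of the median width, limits of 50 and 200 kb, the start moved by 1 kb either way). The 300 bp filter, the 50 kb limit and the moved start select the same 4 regions, so nothing could change there. Otherwise the number was 3 with merged neighbours and 3 with regions of at least the median width. Within 200 kb it was 6, exactly at the limit of 1.5 times. The SD of the 3 distances is wide (5.04 kb). Among regions at or above the median width the spacing was 6.30 kb against 10.6 kb, as the outermost region is then left out. Spacing was taken as the median distance, so the 200 kb limit gave 10.7 kb although it added distances of 51.4 and 95.9 kb. Staying within 1 SD therefore does not show that spacing was stable. The spacing alternatives, the moved start and the width among regions at or above the median were chosen after seeing the data. The share of windows holding as many regions as Fgf8 was 0.791% on chromosome 19 and 0.248% on all chromosomes. With neighbours within 1 kb merged (at least 3 regions) it was 1.56% and 0.899%. With windows centred on regions it was 8.11% and 4.30%, with 100 kb windows 0.193% and 0.0334%, and with 400 kb windows (at least 6 regions) 0.494% and 0.136%. With regions of at least the median width (at least 3 regions) it was 1.05% and 0.305%, and with windows laid end to end 0.702% and 0.287%. With regions of at least 300 bp it was 0.791% and 0.239%. These alternatives differ by construction in the window, the number required or the regions counted. Read depth is unknown, so sites missed for it could not be judged.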
